A study of Felis catus with 25 samples.

Results

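LDHA, SLC16A3, ALDOC, PFKFB3, PFKFB4 and ERO1A are 6 genes of sugar breakdown, lactate export and the oxidative protein folding that is often induced beside them, followed here through 25 RNA-seq libraries of cultured corneal fibroblasts of the domestic cat. They were chosen by symbol, with earlier results of these data known. All 6 were among the 13949 symbols of the count tables, and all 6 were among the 10699 genes that passed the filter on low counts. The libraries form 5 groups of 5. FB held untreated cells at day 0 after they had become quiescent. TGFb held cells given transforming growth factor beta 1 (TGFb1) at 1 ng/ml for 2 days, which turns fibroblasts into contractile myofibroblasts. The other 3 groups had the same 2 days of TGFb1, after which it was removed and a drug was present for 3 days until harvest at day 5. Trog received 7.5 uM troglitazone, a thiazolidinedione that activates the nuclear receptor PPAR-gamma. TrogGW received 7.5 uM troglitazone together with 10 uM GW9662, which blocks that receptor. Cells of UK had 30 uM UK-5099, which inhibits the carrier that takes pyruvate into mitochondria. A group with TGFb1 removed and no drug at day 5 was not analysed here, so the drug, the removal of TGFb1 and the later day cannot be told apart in comparisons with TGFb. Untreated cells at day 2 were not analysed here either, so TGFb1 and the 2 days in culture cannot be told apart in TGFb against FB, and "with TGFb1" below stands for that comparison. The submitters call the replicates biological and independent but do not say whether they came from separate donors, so p-values measure the spread between these libraries.

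Glycolysis turns glucose into pyruvate in the cytosol. Pyruvate then either enters mitochondria or is reduced to lactate by lactate dehydrogenase, and lactate leaves the cell with a proton through monocarboxylate transporters. All of the chosen genes are textbook targets of hypoxia-inducible factors, and myofibroblasts are known for a high rate of glycolysis.

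Libraries held 14.8 to 25.2 M counts. Levels are given as CPM, the count scaled to a common library size, after TMM scaling, whose factors ran from 0.713 to 1.38, and levels of different genes are not compared because gene length was not used. With library totals alone in place of TMM, the median of all genes moved by -0.38 on the log2 scale in TGFb against FB, 0.68 in Trog against TGFb, 0.85 in TrogGW against TGFb and 0.23 in UK against TGFb, so each change below is relative to the bulk of the genes. The myofibroblast marker ACTA2 (smooth muscle actin) was at 1942 CPM in FB, 9003 in TGFb, 269.9 in Trog, 9.38 in TrogGW and 3408 in UK, or 2771 without UK replicate 5. Other genes of its marker list did not all share this order. All but COL1A1 and COL3A1 rose in TGFb against FB and fell in UK against TGFb, and these 2 were called in neither. CNN1 and MYL9 alone fell in UK against FB, from 134 to 79.1 and from 1220 to 827 CPM. The stromal markers LUM and DCN had counts in every group, and 4 tested stromal keratocyte genes summed to 208 to 379 CPM in TrogGW and 4017 to 7729 in UK, against 1340 to 1596 in TGFb. KRT3 and KRT12, which define corneal epithelium, and PTPRC, CD163, AIF1 and MS4A1, which define immune cells, had no count in any library. The 10 immune genes in the files, of which 3 passed the filter, summed to 10.5 to 13.2 CPM in FB, 19.7 to 27.8 in TGFb, 31.5 to 38.4 in Trog, 24.6 to 28.8 in TrogGW and 25.8 to 38.6 in UK. Of the 3, CSF1R, a receptor of macrophages, rose from 0.152 CPM in TGFb to 5.81 in Trog, 4.44 in TrogGW and 6.33 in UK, CD14 rose from 0.703 to 3.50, 2.15 and 3.50, and CD68 was not called in these comparisons. The part of these genes in the results was not tested. Corneal endothelium genes, of which 8 of 8 passed the filter, summed to 2161 to 2371 CPM in FB, 2872 to 3229.8 in TGFb, 1462 to 1616 in Trog, 1469.9 to 1596 in TrogGW and 1038 to 2274 in UK, and their part in the results was not tested. In such bulk samples fewer cells of a type and less RNA per cell cannot be told apart. UK replicate 5 stood apart: across genes it correlated at 0.852 to 0.868 with the other UK libraries, whereas all remaining within-group pairs reached 0.988 or more, so values that rest on it are given with and without it.

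The 6 genes did not move as 1 block. LDHA and SLC16A3 were low in all 3 drug groups. ALDOC, PFKFB3 and ERO1A each had a different order of the groups, with ALDOC lowest in Trog and PFKFB3 and ERO1A lowest in UK. PFKFB4 was lowest in untreated cells.

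**Figure D1:**
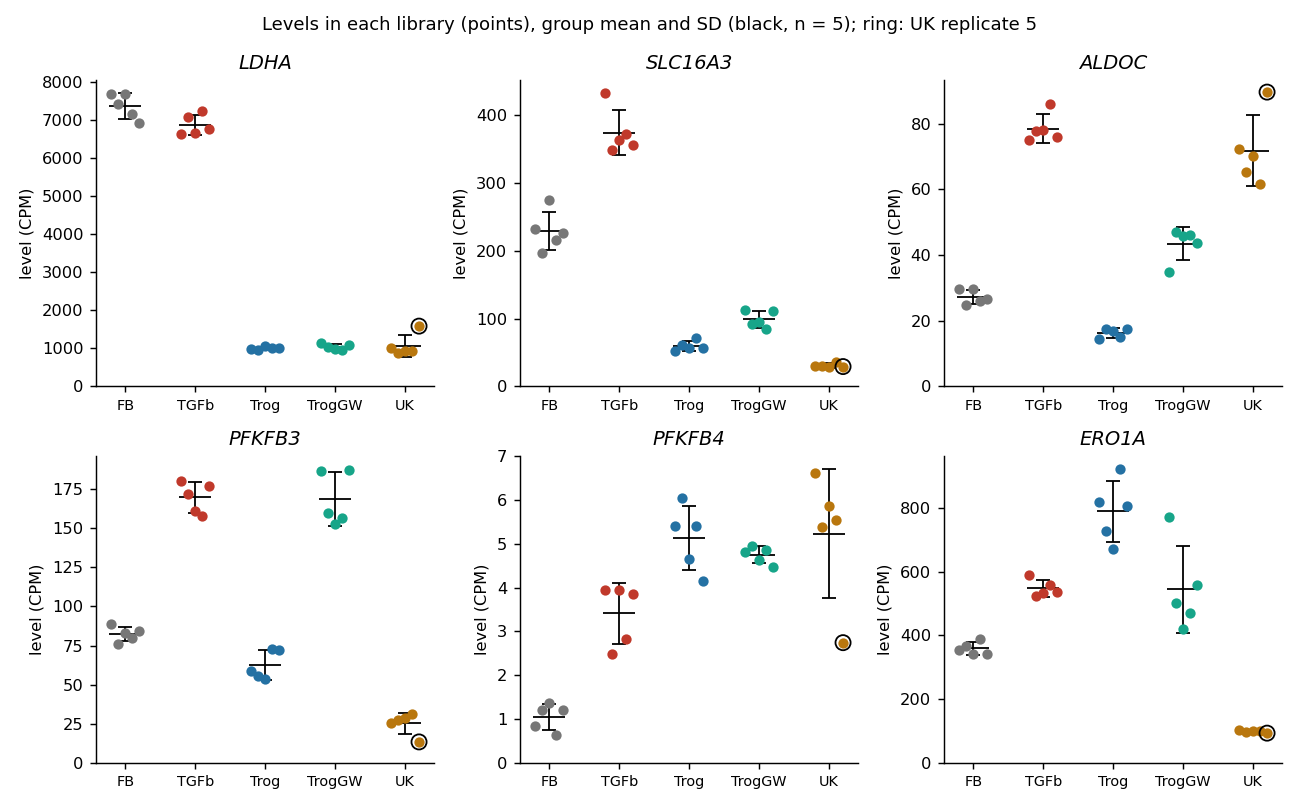
Level of each gene in CPM (vertical axis, from 0) in every library of the 5 groups (horizontal axis). Points are libraries, black bars are the group mean and SD (n = 5), and a ring marks UK replicate 5. The LDHA panel splits into FB and TGFb between 6627 and 7695 CPM and 3 drug groups between 880.4 and 1585 CPM, while ALDOC in UK overlaps TGFb and PFKFB3 in TrogGW overlaps TGFb.

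LDHA encodes the A subunit of lactate dehydrogenase, the enzyme that reduces pyruvate to lactate and so restores the NAD+ that glycolysis needs. In replicate order, its level was 7695, 7418, 7676, 7169.7 and 6911 CPM in FB and 6627, 7079, 6651, 7224 and 6756 in TGFb. Trog had 981, 952, 1051, 1010.4 and 1017 CPM, TrogGW 1135, 1035, 972, 958 and 1088, and UK 1002, 880.4, 919, 939.9 and 1585. Every library of the 3 drug groups lay below every library of FB and TGFb, and within each of these sets the groups overlapped. Against TGFb, LDHA fell by 2.78 ± 0.126 on the log2 scale in Trog (± SE throughout for such changes, edgeR adjusted p = 5.1e-15), which is 6.85-fold. It fell by 2.73 ± 0.126 in TrogGW (edgeR adjusted p = 4.05e-15) and by 2.69 ± 0.125 in UK (edgeR adjusted p = 2.5e-14). LDHA in TGFb was not called, at -0.10 ± 0.118 against FB (95% interval -0.35 to 0.14, edgeR adjusted p = 0.535), whereas with library totals alone it fell by 0.48 (edgeR adjusted p = 7.62e-05). The drug groups were not separated by the test, with 0.05 (95% interval -0.19 to 0.29) for TrogGW against Trog, 0.09 (-0.16 to 0.33) for UK against Trog and 0.04 (-0.21 to 0.28) for UK against TrogGW. Library totals alone gave 0.22 for TrogGW against Trog (edgeR adjusted p = 0.049) and turned the last 2 to -0.40 and -0.61, and without UK replicate 5 these were at -0.10 and -0.14 with no call. UK replicate 5 raised the UK level of 1065 ± 294 CPM (SD, n = 5) from 935 ± 50.8 (n = 4), and without it the change against TGFb was -2.88. Troglitazone and UK-5099 were given at different doses, so values of UK beside those of Trog and TrogGW are not a comparison at matched dose.

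SLC16A3 encodes the monocarboxylate transporter MCT4, which carries lactate out of glycolytic cells. Its level was 232, 197, 274, 215 and 226 CPM in FB and 431, 348, 362, 371 and 356 in TGFb. In Trog it was 52.5, 61.3, 56.8, 70.9 and 56.2 CPM, in TrogGW 112, 91.2, 94.7, 84.8 and 111, and in UK 29.8, 30.7, 28.2, 36.5 and 29.3. No 2 groups overlapped, and in the order TGFb, FB, TrogGW, Trog, UK each group differed from the next. SLC16A3 rose by 0.71 ± 0.104 in TGFb against FB (edgeR adjusted p = 6.77e-06). Against TGFb it fell by 2.65 ± 0.11 in Trog (edgeR adjusted p = 1.2e-15), by 1.92 ± 0.107 in TrogGW (edgeR adjusted p = 1.34e-13) and by 3.59 ± 0.115 in UK (edgeR adjusted p = 6.37e-17). The last of these is 12.1-fold. Adding GW9662 to troglitazone went with a level 1.66-fold higher than with troglitazone alone (0.73 ± 0.105, edgeR adjusted p = 4.22e-06). In UK it was 0.95 lower than in Trog on the log2 scale (edgeR adjusted p = 5.23e-08). UK replicate 5 did not stand apart for this gene. In the RefSeq annotation of the cat (F.catus_Fca126_mat1.0) SLC16A3 overlaps CSNK1D, a kinase gene, and whether reads were counted by strand is not given in the sources used here. CSNK1D was at 193 ± 9.25 CPM in FB, 179 ± 8.23 in TGFb, 168 ± 9.52 in Trog, 139.9 ± 4.77 in TrogGW and 152 ± 23.8 in UK (SD, n = 5).

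ALDOC encodes aldolase C, an isoenzyme of the step that splits a 6-carbon sugar phosphate. It was at 29.6, 24.8, 29.5, 25.9 and 26.7 CPM in FB and at 75.0, 77.7, 78.0, 85.8 and 75.9 in TGFb. Trog had 14.3, 17.3, 16.97, 14.96 and 17.5 CPM, TrogGW 35.0, 47.0, 45.8, 46.1 and 43.6, and UK 72.3, 65.2, 70.2, 61.5 and 89.6. Trog was the lowest group, below untreated cells, and UK overlapped TGFb. With TGFb1 it rose 2.87-fold (1.52 ± 0.102, edgeR adjusted p = 2.38e-11). Against TGFb, ALDOC fell by 2.27 ± 0.105 in Trog (edgeR adjusted p = 6.43e-15) and by 0.85 ± 0.1 in TrogGW (edgeR adjusted p = 6.78e-08), the second of which became 0.00 with library totals alone. UK against TGFb was not called, at -0.13 ± 0.0994 (95% interval -0.34 to 0.08, edgeR adjusted p = 0.288), but without UK replicate 5 ALDOC fell by 0.22 (edgeR adjusted p = 0.0097). Its UK level was 71.8 ± 10.8 CPM (SD, n = 5), and 67.3 ± 4.87 without that library. TrogGW was 1.42 ± 0.102 above Trog on the log2 scale (edgeR adjusted p = 9.1e-11). UK was 2.14 ± 0.104 above Trog (edgeR adjusted p = 3.15e-14), or 2.05 without UK replicate 5, and 0.72 ± 0.0999 above TrogGW, which library totals alone reduced to 0.08 (edgeR adjusted p = 0.441).

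PFKFB3 and PFKFB4 encode bifunctional enzymes that make and remove the sugar bisphosphate that activates phosphofructokinase, with PFKFB3 known for its strong bias toward making it. PFKFB3 was at 88.6, 76.3, 82.9, 80.0 and 84.5 CPM in FB and at 180.4, 172, 161, 158 and 177 in TGFb. It was at 59.0, 55.5, 53.3, 72.9 and 72.3 CPM in Trog, 187, 159.8, 153, 156 and 187 in TrogGW, and 25.7, 27.2, 28.6, 30.9 and 13.4 in UK. TrogGW and TGFb overlapped, whereas Trog lay below FB and UK below all other groups. PFKFB3 rose by 1.04 ± 0.146 in TGFb against FB (edgeR adjusted p = 3.41e-06). Against TGFb it fell by 1.44 ± 0.147 in Trog (edgeR adjusted p = 9.03e-09) and by 2.75 ± 0.155 in UK (edgeR adjusted p = 7.31e-13), or by 2.59 without UK replicate 5. TrogGW against TGFb was -0.01 ± 0.144 (95% interval -0.31 to 0.29), and with library totals alone PFKFB3 rose by 0.84 (edgeR adjusted p = 5.9e-05). TrogGW was 2.69-fold above Trog (1.43 ± 0.147, edgeR adjusted p = 3.33e-08). Trog was 0.40 ± 0.145 below FB (edgeR adjusted p = 0.0202), a call lost without Trog replicate 2 (edgeR adjusted p = 0.0525), without Trog replicate 3 (0.058) and with library totals alone, at -0.09.

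PFKFB4 was the gene with the fewest reads, 14 to 157 counts a library. Its level was 0.836, 1.21, 1.36, 0.641 and 1.21 CPM in FB and 3.94, 2.50, 3.95, 2.84 and 3.86 in TGFb. Trog had 5.41, 6.04, 4.67, 5.41 and 4.15 CPM, TrogGW 4.83, 4.96, 4.62, 4.86 and 4.48, and UK 6.62, 5.39, 5.86, 5.55 and 2.74. FB was below every other group, and the drug groups lay above TGFb but for UK replicate 5. PFKFB4 rose 3.26-fold with TGFb1 (1.71 ± 0.217, edgeR adjusted p = 8.64e-07). Against TGFb it rose further, by 0.58 ± 0.188 in Trog (edgeR adjusted p = 0.00934), by 0.47 ± 0.188 in TrogGW (edgeR adjusted p = 0.0296) and by 0.63 ± 0.19 in UK (edgeR adjusted p = 0.00822). The TrogGW call was lost without TGFb replicate 2 (edgeR adjusted p = 0.0969), TGFb replicate 4 (0.0771) or TrogGW replicate 2 (0.0528). The UK call was lost when only UK and TGFb were fitted (edgeR adjusted p = 0.0686) and was 0.77 without UK replicate 5. Between drug groups no difference passed, with -0.11 (95% interval -0.48 to 0.26) for TrogGW against Trog, 0.04 (-0.33 to 0.42) for UK against Trog and 0.16 (-0.22 to 0.53) for UK against TrogGW. The last was 0.30 without UK replicate 5 (edgeR adjusted p = 0.0395) and -0.45 with library totals alone (edgeR adjusted p = 0.0451). An uncharacterised noncoding RNA gene overlaps PFKFB4 in the RefSeq annotation and was not analysed here.

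ERO1A encodes an oxidase of the endoplasmic reticulum that re-oxidises protein disulfide isomerase, and so drives disulfide formation in secreted proteins. It was at 356, 368, 343, 389 and 342 CPM in FB and at 591, 523, 532, 558 and 535 in TGFb. In Trog it was 819, 727, 671, 921 and 807 CPM, in TrogGW 773, 502, 420.5, 469.5 and 557, and in UK 104, 97.9, 101.3, 99.97 and 93.1. Trog was the highest group and UK the lowest by far, and 1 TrogGW library, replicate 1, lay among those of Trog. ERO1A rose by 0.61 ± 0.117 in TGFb against FB (edgeR adjusted p = 0.000184), or by 0.23 with library totals alone, where the call was lost (edgeR adjusted p = 0.0995). In Trog it rose by a further 0.53 ± 0.116 against TGFb (edgeR adjusted p = 0.000392). In UK it fell by 2.46 ± 0.123 (edgeR adjusted p = 7.19e-14), which is 5.52-fold, and UK was 2.99 ± 0.125 below Trog. TrogGW against TGFb was -0.01 ± 0.116 (95% interval -0.25 to 0.23), and with library totals alone ERO1A rose by 0.84 (edgeR adjusted p = 6.43e-07). TrogGW was 0.53 ± 0.116 below Trog (edgeR adjusted p = 0.000595), with overlapping libraries.

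**Figure D2:**
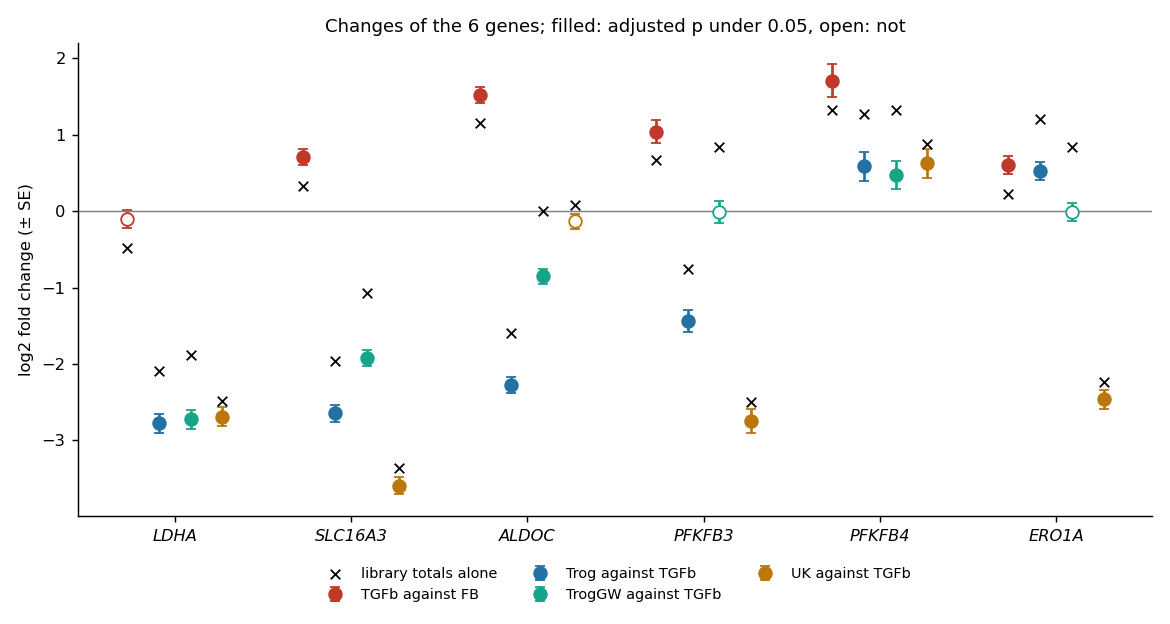
Log2 fold change (vertical axis, ± SE) of each gene in TGFb against FB and in Trog, TrogGW and UK against TGFb. Filled circles passed an adjusted p of 0.05, open circles did not, and crosses give the value with library totals alone. Crosses for LDHA and SLC16A3 stay below 0 in all 3 drug comparisons, while those of PFKFB3 and ERO1A in TrogGW lie at 0.84.

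The 6 genes and the gene lists below were chosen with earlier results of these data known. Their counts beside the shares of all tested genes are therefore descriptions and not tests of a set. Read by comparison, 5 of the 6 genes rose with TGFb1 and 0 fell, where 18% of all tested genes rose and 20.2% fell. The median change of the 6 was 0.88, against -0.02 for all tested genes. With library totals alone 4 of the 6 rose and LDHA fell, and the share of higher genes among all called genes went from 47.2% to 13.9%.

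Against TGFb, Trog had 2 of the 6 higher (PFKFB4, ERO1A) and 4 lower, where 32.9% of all tested genes rose and 29.7% fell. Of the 6, 1 rose (PFKFB4) and 3 fell in TrogGW, against 38.1% and 31.3% of all tested genes. That balance turned with library totals alone, where 3 rose (PFKFB3, PFKFB4 and ERO1A) and 2 fell (LDHA and SLC16A3). In UK, 1 rose (PFKFB4) and 4 fell, against 28% and 22.5%. The numbers were 1 and 5 without UK replicate 5, and 0 and 4 with these 2 groups fitted alone. The median change of the 6 was -1.86 in Trog, -0.43 in TrogGW and -2.58 in UK, against 0.04, 0.09 and 0.09 for all tested genes. These 3 comparisons share the TGFb libraries. Scaled by library totals alone, the share of higher genes among all calls went from 52.5% to 83.2% in Trog, from 54.9% to 84.9% in TrogGW and from 55.4% to 74.2% in UK.

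Adding GW9662 to troglitazone raised 3 of the 6 genes (SLC16A3, ALDOC and PFKFB3) and lowered ERO1A, against 22.8% of all tested genes higher and 20.4% lower. The median change of the 6 was 0.39, against 0.01 for all tested genes. Each of these 4 directions was the same with library totals alone, where LDHA was added to those higher and the share of higher genes among all calls went from 52.8% to 69.9%. TrogGW was the group with the lowest myofibroblast marker sum, 6446 to 16774 CPM, against 23361 to 28733 in Trog, and the part of this difference in the results was not tested.

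UK beside Trog, at unmatched doses, had ALDOC higher and SLC16A3, PFKFB3 and ERO1A lower, 1 and 3 of the 6, where 32.9% of all tested genes rose and 28.2% fell. The same genes in the same directions were called in UK against TrogGW, 1 and 3 of the 6, where 32.9% rose and 35.1% fell. Without UK replicate 5, PFKFB4 was added to those higher than in TrogGW. With library totals alone LDHA was added to those lower than in Trog, giving 1 and 4, and against TrogGW the numbers became 0 and 5, with ALDOC not called and LDHA and PFKFB4 lower. The share of higher genes among all calls went, with library totals alone, from 53.8% to 25.1% against Trog and from 48.4% to 20.4% against TrogGW.

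Set against untreated cells, Trog had 2 of the 6 higher (PFKFB4 at 2.29 and ERO1A at 1.13) and 4 lower, where 32.4% of all tested genes rose and 31.5% fell. TrogGW had 4 higher, of which ALDOC was at 0.67, PFKFB3 at 1.03 and ERO1A at 0.60, and 2 lower, LDHA at -2.83 and SLC16A3 at -1.21, where 36.2% rose and 33.6% fell. UK had 2 higher (ALDOC at 1.39, PFKFB4 at 2.33) and 4 lower, of which SLC16A3 was at -2.89 and ERO1A at -1.86, where 30% rose and 26.5% fell. LDHA and SLC16A3 were thus below their untreated level in all 3 drug groups, and PFKFB4 above it. With library totals alone the share of higher genes among all calls went from 50.7% to 68.2% in Trog, from 51.8% to 73.9% in TrogGW and from 53.1% to 41.9% in UK.

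The ratio of 2 related genes within a library does not depend on the scaling of libraries, and it moved for 3 pairs. Differences between groups were tested by a two-sided exact permutation test, whose smallest p with 5 libraries against 5 is 0.00794, adjusted over 30 tests. The ubiquitous aldolase gene is ALDOA, and the log2 ratio of ALDOC to ALDOA counts was -6.07 ± 0.0413 in FB, -4.49 ± 0.0261 in TGFb, -5.66 ± 0.127 in Trog, -4.50 ± 0.221 in TrogGW and -3.12 ± 0.119 in UK (SD, n = 5). Of 10 comparisons 9 had groups that did not overlap (exact adjusted p = 0.00992 for each), and the exception was TrogGW against TGFb, with -0.01 (exact adjusted p = 0.944). UK had the highest ratio, 1.38 above TGFb on the log2 scale, or 1.42 without UK replicate 5. ALDOA fell against TGFb by 1.12 ± 0.103 in Trog and by 1.49 ± 0.104 in UK, where ALDOC was near its TGFb level.

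**Figure D3:**
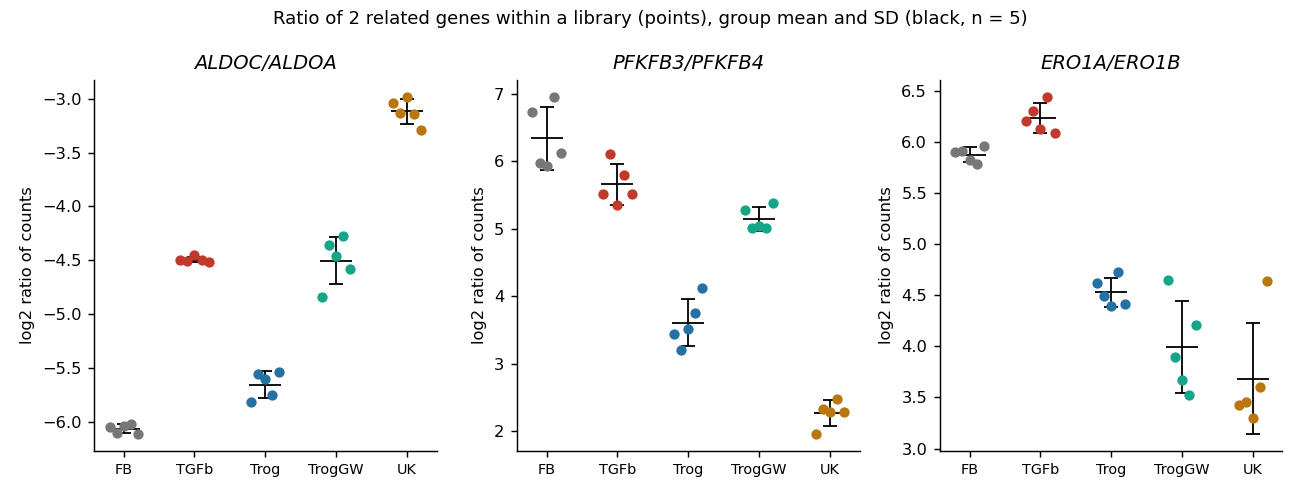
Log2 ratio of counts (vertical axis) of ALDOC to ALDOA, PFKFB3 to PFKFB4 and ERO1A to ERO1B in every library (points) of the 5 groups, with the group mean and SD (black, n = 5). UK is the highest group for ALDOC to ALDOA, at -3.12, and the lowest for the other pairs.

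For PFKFB3 to PFKFB4 the log2 ratio was 6.35 ± 0.469 in FB, 5.66 ± 0.299 in TGFb, 3.61 ± 0.349 in Trog, 5.14 ± 0.175 in TrogGW and 2.27 ± 0.191 in UK (SD, n = 5). The ratio was lower in Trog than in TGFb by 2.05 and lower in UK than in TGFb by 3.39, both without overlap (exact adjusted p = 0.00992). TrogGW lay 1.54 above Trog (exact adjusted p = 0.00992) and 0.51 below TGFb (exact adjusted p = 0.019, overlapping). The difference of -0.69 between TGFb and FB (exact adjusted p = 0.0275, overlapping) was lost with 1 CPM added to both genes, at -0.07 (exact adjusted p = 0.681), and without FB replicates 1 or 4 or TGFb replicates 1, 3, 4 or 5, where it ran from -0.72 to -0.53. ERO1B is the second ERO1 oxidase, best known from the pancreas, and the log2 ratio of ERO1A to ERO1B was 5.87 ± 0.0703 in FB, 6.23 ± 0.144 in TGFb, 4.53 ± 0.142 in Trog, 3.99 ± 0.45 in TrogGW and 3.68 ± 0.542 in UK (SD, n = 5). It was lower in each drug group than in TGFb and FB without overlap (exact adjusted p = 0.00992). Between drug groups it was -0.54 in TrogGW against Trog (exact adjusted p = 0.051), or -0.70 without TrogGW replicate 1 (exact adjusted p = 0.00952). UK against Trog was -0.84 (exact adjusted p = 0.0441), between -0.79 and -0.75 and not passed without Trog replicate 4 or UK replicates 1, 2 or 3, and -1.08 without UK replicate 5 (exact adjusted p = 0.00952). UK against TrogGW was -0.31 (exact adjusted p = 0.328), or -0.54 without UK replicate 5 (exact adjusted p = 0.0493).

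The genes of this last pair moved differently between the drugs. In Trog and TrogGW, ERO1B rose against TGFb by 2.22 ± 0.166 and 2.20 ± 0.166, from 7.31 ± 0.738 CPM in TGFb to 34.0 ± 2.36 and 33.7 ± 4.22, while ERO1A rose or stayed uncalled. In UK, ERO1A fell and ERO1B was at 0.17 ± 0.165 (edgeR adjusted p = 0.41), or 0.33 without UK replicate 5 (edgeR adjusted p = 0.0057).

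Of the partners of ERO1A in the lumen, the disulfide isomerase P4HB rose by 0.55 with TGFb1 and fell against TGFb by 1.39 in Trog, 2.14 in TrogGW and 0.38 in UK, the first and the last without a call with library totals alone, at 0.17 and -0.19. PDIA4, another isomerase, rose by 0.89 with TGFb1 and fell by 0.74 in UK against TGFb. It rose in Trog by 1.08, from 1045 ± 75.8 to 2202 ± 340 CPM (SD, n = 5), and it fell by 0.84 in TrogGW, where library totals alone gave 0.01. PDIA6 rose with TGFb1 by 0.82 (0.44 without a call with library totals alone) and fell by 0.74 in Trog, where library totals alone gave -0.05 with no call, and by 1.67 in TrogGW. PRDX4, a peroxidase of the same compartment, rose by 0.95 with TGFb1 and fell by 2.17 in Trog and 3.45 in TrogGW. In UK, PDIA6 was at -0.38 and PRDX4 at -0.10, neither called, and without UK replicate 5 they fell by 0.99 and 0.61.

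The relatives of LDHA and SLC16A3 in the files had their own patterns. LDHD, which oxidises D-lactate in mitochondria, rose by 3.24 ± 0.285 in UK against TGFb, from 0.624 ± 0.237 to 5.94 ± 2.18 CPM (SD, n = 5), and by 3.01 without UK replicate 5. LDHC, the testis form, rose by 0.92 in Trog and 1.76 in TrogGW from 0.359 CPM in TGFb. In UK it rose by 0.81, a call lost without UK replicate 5 (0.78, edgeR adjusted p = 0.0652). BSG encodes basigin, the chaperone that brings SLC16A3 protein to the cell surface. It fell against TGFb by 1.10 in Trog and by 2.06 in TrogGW, the first not called with library totals alone at -0.42. BSG in UK was at -0.01, and without UK replicate 5 it fell by 0.54. That library had 4333 CPM, against 1278 in the lowest. SLC16A7, a transporter with high affinity for pyruvate and lactate, rose by 0.66 in Trog and 1.31 in TrogGW and fell by 1.29 in UK. SLC16A8, the retinal form, rose by 1.74 and 2.95 in Trog and TrogGW from 0.0989 CPM in TGFb. PFKFB2, the heart form of the regulator, rose in all 3 drug groups, by 1.25, 1.48 and 0.55. The muscle and liver phosphofructokinases PFKM and PFKL fell in all 3, by 1.02 and 1.43 in Trog, 1.20 and 1.69 in TrogGW and 0.68 and 1.28 in UK. LDHB and SLC16A1, the partners of LDHA and SLC16A3 in most tissues, were not analysed here.

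The glycolysis list had 25 genes, of which HKDC1, PFKP, PGK1, PGAM1, PKM and LDHB were not among the symbols counted. Across the 16 tested genes of the list, of which LDHA and ALDOC are members, 6 rose with TGFb1 and 1 fell, with a median of 0.34, where 18% and 20.2% of all tested genes did. The counts were 1 and 6 with library totals alone. They were 8 and 2 without UK replicate 5, a fit in which genes called over the whole table went from 1931 higher and 2158 lower to 3425 and 3699. ALDOC, the hexokinase HK2 (0.69 ± 0.199) and HK1 (0.60 ± 0.0988) rose most, and ALDOC alone stayed called with library totals alone. Trog against TGFb had 1 gene higher and 12 lower, with a median of -1.25, where 32.9% and 29.7% of all tested genes rose and fell (3 and 10 with library totals alone, 2 and 12 without UK replicate 5). TPI1, triose phosphate isomerase, fell most, from 3093 to 412 CPM (-2.91 ± 0.281), ahead of LDHA and ALDOC. TrogGW had 1 higher and 11 lower, against 38.1% and 31.3% of all tested genes (5 and 7 with library totals alone, 3 and 11 without UK replicate 5), and TPI1 was at -1.53. In UK 2 rose and 10 fell, against 28% and 22.5% of all tested genes (2 and 8 with library totals alone, 1 and 12 without UK replicate 5). LDHA was at -2.69, TPI1 at -2.56 and HK2 at -1.92, and without UK replicate 5 LDHA was at -2.88 and TPI1 below it at -3.17, while ENO2, a neuronal enolase, rose by 0.68.

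**Figure D4:**
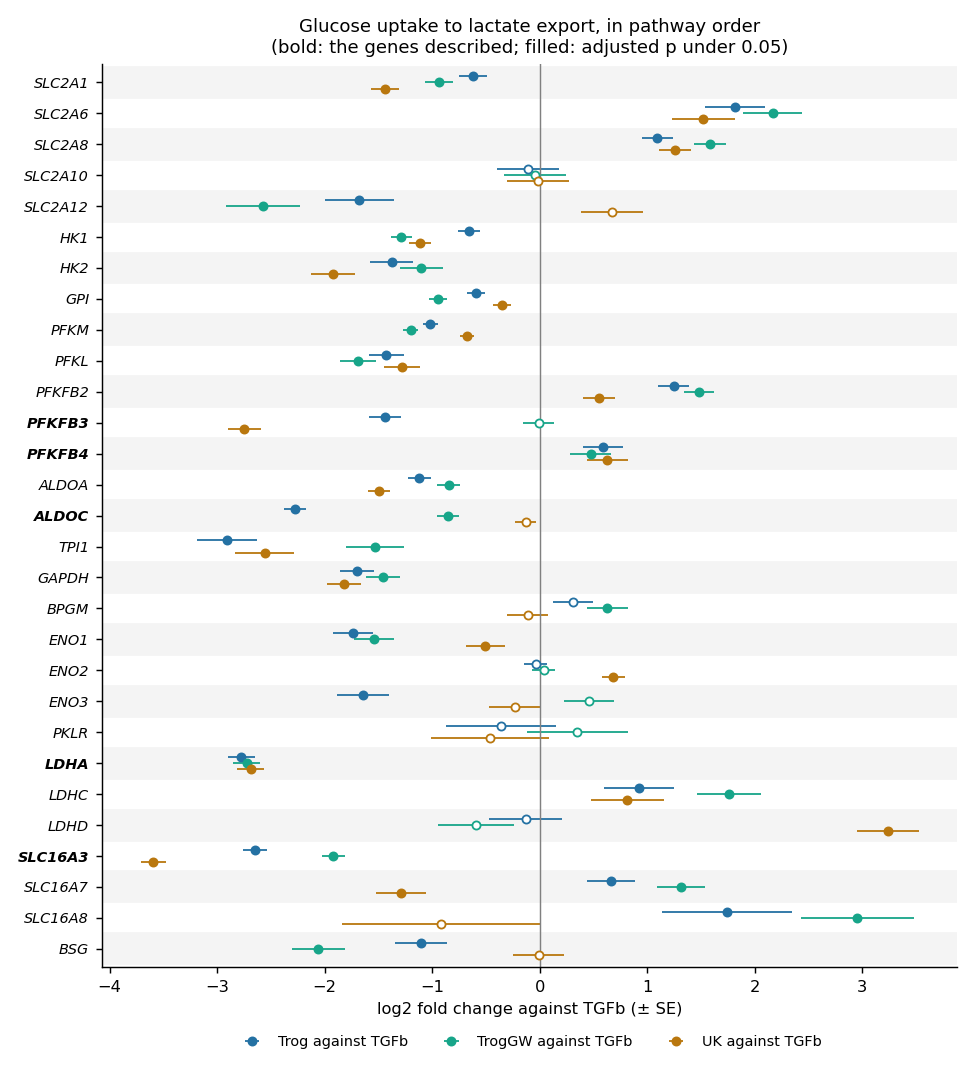
Log2 fold change against TGFb (horizontal axis, ± SE) of 29 tested genes of glucose uptake, glycolysis, its regulators and lactate handling, in pathway order, for Trog, TrogGW and UK. Filled circles passed an adjusted p of 0.05. LDHA has the 3 drug groups on top of each other between -2.78 and -2.69, whereas ALDOC, PFKFB3 and SLC16A7 separate them.

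GW9662 beside troglitazone alone raised 4 of the 16 and lowered 3, against 22.8% and 20.4% of all tested genes (7 and 2 with library totals alone, 8 and 4 without UK replicate 5). ENO3, the muscle enolase, was higher by 2.10 ± 0.244, ALDOC by 1.42 and TPI1 by 1.38, and HK1 was lower by 0.63, GPI by 0.35 and PFKM by 0.18, the last at -0.01 with library totals alone. Counting of reads that map to the processed pseudogenes which many glycolytic genes have in mammals, among them LDHA, TPI1 and GAPDH, is not given in the sources used here, so their levels are uncertain to that extent.

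Among 9 tested genes of glucose and lactate transport, SLC16A3 and the glucose transporter SLC2A1 rose with TGFb1 and SLC2A6 fell, 2 and 1 against 18% and 20.2% of all tested genes. With library totals alone SLC2A1 was not called, at 0.22. SLC2A1 fell against TGFb by 0.62 in Trog and 0.94 in TrogGW, at 0.06 and -0.09 without a call with library totals alone, and by 1.44 ± 0.132 in UK. In Trog 4 rose and 4 fell, with SLC2A12 at -1.68, SLC2A6 at 1.81 and SLC2A8 at 1.09, where 32.9% and 29.7% of all tested genes rose and fell (4 and 2 with library totals alone). TrogGW also had 4 and 4, against 38.1% and 31.3% (5 and 3 with library totals alone). UK had 2 higher and 3 lower, against 28% and 22.5% (3 and 3 with library totals alone, 5 and 4 of 10 without UK replicate 5).

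HIF1A, the subunit of the hypoxia-inducible factor that is best known for inducing these 6 genes, rose with TGFb1 from 746 ± 33.4 to 1355 ± 28.5 CPM (SD, n = 5), by 0.86 ± 0.0874. It fell in Trog to 724 ± 41.4 CPM (-0.90 ± 0.0874, at -0.22 without a call with library totals alone) and in TrogGW to 322 ± 28.01 CPM (-2.07 ± 0.0902), and it rose in UK to 2089 ± 299 CPM (0.62 ± 0.0871). The direction of HIF1A mRNA against TGFb differed between UK and the other 2 drug groups. HIF protein was not measured, and the part of HIF1A in the levels of the 6 genes was not tested. EPAS1, the second such subunit, rose in Trog by 2.04 ± 0.24, from 175 ± 11.2 to 721 ± 81.1 CPM (SD, n = 5), and in TrogGW by 0.69. HIF1AN, an enzyme that restrains these factors, rose by 0.62 with TGFb1 (0.25 without a call with library totals alone) and fell by 1.20 in Trog, by 0.72 in TrogGW, where library totals alone gave 0.13 with no call, and by 0.89 in UK.

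Outside glycolysis, 20 tested genes of the hypoxia response had 12 higher in TGFb than in FB and 1 lower, CA12, against 18% and 20.2% of all tested genes (9 and 3 with library totals alone, 16 and 2 without UK replicate 5). ANGPTL4 rose by 1.91, DDIT4 by 1.70 and the collagen lysyl hydroxylase PLOD2 by 1.36. Trog had 4 higher and 11 lower, against 32.9% and 29.7% (8 and 11 with library totals alone, 7 and 13 without UK replicate 5). Among them were the carbonic anhydrases CA9 at -3.74 and CA12 at 3.12. Over all genes, Trog against TGFb went from 3519 higher and 3180 lower to 4533 and 4209 without UK replicate 5. TrogGW had 6 higher and 12 lower, against 38.1% and 31.3% (9 and 10 with library totals alone). UK had 3 higher and 14 lower, against 28% and 22.5%, with PLOD2 at -2.80 and DDIT4 at -2.39. VEGFA, the vascular growth factor, rose in Trog by 0.72 and in TrogGW by 1.05 and fell in UK by 2.16 ± 0.234. VEGFA was singled out after its values were seen. TrogGW against Trog had 8 higher and 5 lower, against 22.8% and 20.4% (9 and 5 with library totals alone), with PLOD2 at 1.19 and LOX at -2.35.

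Of 5 tested genes of the pentose phosphate pathway, which branches off glycolysis, 2 rose and 2 fell in Trog, against 32.9% and 29.7% of all tested genes, whereas 4 rose and 0 fell with library totals alone. In UK 3 rose and 0 fell, against 28% and 22.5% (4 and 0 with library totals alone, 3 and 1 without UK replicate 5). TALDO1 rose by 1.76 in Trog and 1.54 in UK (0.76 without UK replicate 5), and RPIA by 1.95 and 0.63. Of 12 genes of glycogen and gluconeogenesis, 8 fell and 1 rose in Trog, against 29.7% and 32.9% of all tested genes (6 fell and 3 rose with library totals alone), with G6PC3 at -1.80. UK had 7 lower and 2 higher, against 22.5% and 28% (4 lower and 2 higher with library totals alone). FBP2, a muscle phosphatase that runs a glycolytic step in reverse, rose there by 2.64 ± 0.245, or by 2.23 without UK replicate 5, and was lower in TrogGW than in Trog by 2.62.

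The likeness of patterns was measured as the root mean square difference between centred group means of log2 CPM over the 5 groups, among 7471 genes averaging 10 CPM or more, where 0 means the same pattern. Among the 6 genes, LDHA and SLC16A3 were the nearest pair at 0.63, and PFKFB3 with ERO1A followed at 0.73. LDHA and PFKFB4 were the farthest apart, at 2.11. Every gene of the 6 had other genes nearer to it than its nearest neighbour among them. For SLC16A3 these were DCLK1 at 0.15, MXRA5 at 0.15 and THSD4 at 0.24. For LDHA they were RPS6KA4 at 0.30, FLNC at 0.34 and TTPAL at 0.40. ALDOC had EXTL2 at 0.30 and PLAT at 0.34. PFKFB3 had SOCS3 at 0.29, LIF at 0.30 and HBEGF at 0.33. PFKFB4 had MEGF9 at 0.21, MCOLN1 at 0.29 and FLCN at 0.31, and ERO1A had PTAR1 at 0.34 and CCDC134 at 0.34. Without UK replicate 5, TTPAL ranked 19, MEGF9 26, PTAR1 21 and CCDC134 16 for their genes. These values are descriptions over 5 points that share libraries and scaling.

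**Figure D5:**
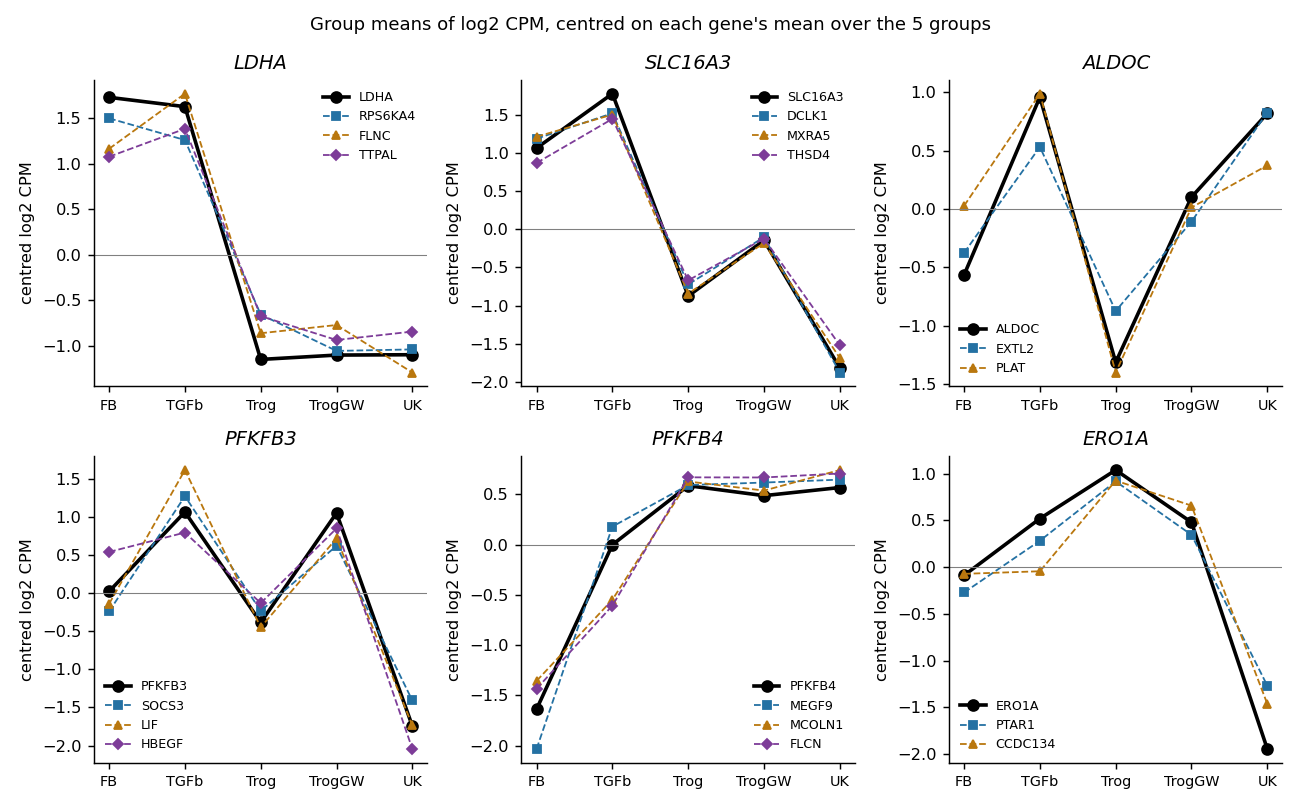
Centred group means of log2 CPM (vertical axis) over the 5 groups (horizontal axis) for each of the 6 genes (black) and genes among the 3 with the most similar pattern (coloured, dashed). LDHA steps down between TGFb and the drug groups, SLC16A3 also separates the drug groups, PFKFB3 has peaks in TGFb and TrogGW, and PFKFB4 is low in FB alone.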

How the data were processed

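Polyadenylated RNA was sequenced in 25 libraries with a stranded kit, per the labels. The authors deposited 1 table of raw read counts per library, which were used as deposited. Per the submitters' processing notes, Salmon 1.5.2, featureCounts, Subread 2.0.1, STAR 2.7.9a and fastp 0.23.1 were used, with no role or order given. Genome build, annotation and strand setting are not given in the sources used here. Counts (14.8 to 25.2 M a library) were fitted over all 25 libraries in R 4.3.3 with edgeR 4.0.16, with TMM scaling, the expression filter (minimum count 10, minimum total 15) and 1 mean per group. Genes were tested by the quasi-likelihood F test in 10 comparisons, adjusted by the Benjamini-Hochberg method over 10699 genes, and called rose or fell at an adjusted p under 0.05. The code was tested on simulated counts. The 6 genes and the gene lists were chosen with earlier results of these data known. Text names the 6, all tested family members and partners, and up to 3 called genes with the largest and 3 with the smallest change per list. The PFKFB3 to PFKFB4 and other ratios use counts, with a minimum of 10. Ratios with LDHB or SLC16A1 were not computed, and no sequences are shown. Alternatives were DESeq2 1.42.0, voom of limma 3.58.1, RLE factors, library totals alone, a minimum count of 50 and no filter, fits of 2 groups, a replicate block and each library left out. Leaving out UK replicate 5 from comparisons without UK was chosen after seeing the data. Some genes that this rule names are not reported here, though list counts include them.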

Additional observations from a re-analysis of the deposited data

Results flagged for a closer look

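In 5 of 45 group values tested, the highest or lowest library was farther from the others than Dixon's 95% limit allows. Chance gives this in about 1 in 20 groups. LDHA in UK replicate 5 was at 1585 CPM, against 880.4 to 1002 in the other UK libraries, and the log2 ratio of ERO1A to ERO1B in the same library was 4.63, against 3.30 to 3.61. SLC16A3 in TGFb replicate 1 was at 431 CPM, against 348 to 371. ALDOC in TGFb replicate 4 was at 85.8 CPM, against 75.0 to 78.0, and in TrogGW replicate 1 at 35.0, against 43.6 to 47.0. Calls of SLC16A3 and ALDOC were the same without these libraries in every comparison they enter.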

How the results depend on the processing

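The number of the 6 genes called in either direction together stayed within 1.5 times of its value in 80 of 80 other settings and 106 of 106 fits with a library left out. In no comparison could the number rise past that limit, since 6 is the most possible, so only losses of calls could have shown. Split by direction, the number moved further. In TrogGW against TGFb library totals alone turned 1 rose and 3 fell into 3 and 2. In UK against TrogGW they turned the same numbers into 0 and 5. DESeq2, voom, RLE factors, no filter and the stricter filter each kept the side of the threshold for all 60 values of the 6 genes. They also kept the direction of every called value, and the direction of uncalled values was not compared. The replicate block also kept the side of the threshold for all 60. Same-numbered libraries deviated from their group means with correlations of -0.19 to 0.33, which does not settle whether replicate numbers pair them. In the exact test of the ratios the replicate block cannot go below a permutation p of 0.0625, so 27 of 30 fell short by construction. Changes of sign were counted only where TMM or library totals alone gave a call. Library totals alone changed the sign of 6 such values. In TrogGW against TGFb these were ALDOC (0.0024), PFKFB3 (0.84) and ERO1A (0.84). The others were LDHA in UK against Trog (-0.40), and LDHA (-0.61) and PFKFB4 (-0.45) in UK against TrogGW. Of the 6, ALDOC was called with TMM only and the rest with library totals alone only, so no call turned into a call the other way. Which scaling is nearer to RNA per cell was not tested. Over all genes, 1931 rose and 2158 fell in TGFb against FB, or 3425 and 3699 without UK replicate 5 and 3422 and 3665 with these 2 groups alone. TrogGW against Trog went from 2438 and 2182 to 3911 and 3824, or 3724 and 3588. Without UK replicate 5, Trog against TGFb went from 3519 and 3180 to 4533 and 4209. TrogGW against TGFb went from 4076 and 3345 to 5037 and 4242 in the same fit. The shares of all tested genes printed beside list counts are those of the main fit. UK against TGFb went from 2996 and 2412 to 1702 and 1508 with these 2 groups alone, and to 3881 and 3776 without UK replicate 5. In that fit 4 of 10 transport genes rose with TGFb1, against 2 of 9. PFKFB4, at 14 to 26 counts in FB, is the gene whose values depth limits most.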
